A study of Mus musculus with 8 samples.

Results

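Immediate early genes of 3 transcription factor families were followed through the leukocytes of mouse liver metastases, 9 genes of the 33696 in the deposited matrices. The genes were the nuclear receptors Nr4a1, Nr4a2 and Nr4a3, the zinc finger factors Egr1 and Egr2, and the AP-1 genes Fos, Fosb, Jun and Junb, each matched by its symbol, and all 9 were found. They are genes that a T cell receptor signal and the stress of taking a tissue apart can both induce. The list is treated here as chosen by measured levels in CD8 T cells, because Nr4a1 and Nr4a3 had already been seen to differ there between genotypes in these mice. The genotype values in CD8 T cells and the levels across cell types are therefore given as descriptions with no test. The question put to the data was where the 9 genes move with marks of receptor signalling and where they move with genes of dissociation stress.

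The cells were live leukocytes sorted for CD45.2 from liver tumours at day 30 after Venus-AKTPM/LOH colorectal cancer cells were injected into the spleen. Knockout mice (Vav1CreTet2KO, 2 mice) had lost Tet2 in cells that had used the Vav1 promoter, which is active across the blood lineages, and control mice (Tet2fl/fl, 2 mice) carried the floxed allele. All tumours were digested with collagenase A and DNase I and spun through a density gradient before the sort. Each mouse gave 1 library of unique molecular identifiers (UMIs, counted transcript molecules) read from the 5' end and 1 library of T cell receptor transcripts.

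Immediate early genes need no new protein to be switched on. Calcium and NFAT signals drive NR4A genes in lymphocytes, ERK signals acting on SRF and its ELK partners drive Egr1 and Fos, and cAMP signals act through CREB on several members of all 3 families. NR4A factors bind DNA without a known natural ligand, and in T cells they are known as targets of the antigen receptor that accompany exhaustion. Egr2 is known in T cells as a brake that follows receptor signals and is also expressed by macrophages. FOS proteins pair with JUN proteins to form AP-1, the partner of NFAT in T cell activation, and warm enzymatic digestion is known to raise Fos, Jun, Egr1 and heat shock genes in dissociated cells.

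The promoters of the members are shown here because the members that share a short CREB motif include genes that behaved unlike each other below. In the 250 bases before and 50 bases after the GENCODE start site (genome GRCm39, both strands), TGACG, a core of the CREB binding site, was found in 7 of 9 members (Nr4a1, Nr4a3, Egr1, Egr2, Fos, Fosb and Junb) and in 22.6% of 21770 protein-coding promoters. The EGR motif GCGGGGGCG was found in 2 members (Nr4a1 and Fosb) and in 3.28% of promoters, and the CArG box, the motif of SRF, in 1 member (Egr2) and in 1.54%. TGACGTCA (2.44% of promoters), the AP-1 motif TGANTCA (7.14%) and the NR4A motif AAAGGTCA (1.36%) were found in none of the 9 windows, and TGACG is contained in TGACGTCA. These matches are letters in a window and no evidence of binding. Only exact matches were counted, and sites farther than 250 bases upstream were not looked for. A motif not found here may therefore still be present at the gene, the CArG box of Egr1 and Fos included. The upstream stretches of 6 members that hold the motifs (that of Egr1 is not printed) read as follows, 5′ to 3′ on the strand of the gene, with TGACG or its reverse complement, the CArG box and GCGGGGGCG in capitals:
Nr4a1 (chr15:101164479-101164533, plus strand): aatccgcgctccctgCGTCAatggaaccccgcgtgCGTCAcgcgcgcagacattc
Nr4a3 (chr4:48045059-48045119, plus strand): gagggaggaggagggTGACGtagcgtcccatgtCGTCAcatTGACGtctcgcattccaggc
Egr2 (chr10:67373573-67373663, plus strand): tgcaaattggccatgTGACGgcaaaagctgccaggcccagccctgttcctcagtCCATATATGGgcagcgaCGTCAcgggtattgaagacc
Fos (chr12:85520520-85520617, plus strand): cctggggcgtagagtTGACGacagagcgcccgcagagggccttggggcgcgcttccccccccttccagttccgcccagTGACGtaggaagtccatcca
Fosb (chr7:19043997-19044045, minus strand): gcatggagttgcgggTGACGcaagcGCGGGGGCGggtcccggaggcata
Junb (chr8:85705464-85705498, minus strand): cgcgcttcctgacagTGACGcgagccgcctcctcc
The stretch of Nr4a1 also lies in an exon of Gm63176 and that of Egr2 in an exon of Gm66196, and the other 4 lie outside annotated exons.

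The genes themselves span chr15:101151980-101172681 (Nr4a1), chr2:56996842-57014331 (Nr4a2), chr4:48045153-48086447 (Nr4a3), chr18:34992876-34998049 (Egr1), chr10:67371305-67378018 (Egr2), chr12:85520658-85524047 (Fos), chr7:19036621-19043976 (Fosb), chr4:94937271-94940459 (Jun) and chr8:85701113-85705359 (Junb).

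Between 10432 and 13083 cells per mouse were used. The 2 knockout libraries held 57190926 and 60456627 UMIs and the 2 control libraries 89945864 and 91789597, and median UMIs per barcode were 3739 and 3726 against 6639 and 6225.5. Tet2 itself stood at 37.8 and 32.3 CPM (UMIs scaled to 1000000 per library) in the knockout mice and 67.2 and 65.9 in the control mice, lower in both knockout mice. These values cover all barcodes of a library, and the libraries differed in their cells as given below. The part of that difference in the Tet2 values was not tested. Between 272 and 303 barcodes were shared by any pair of libraries. Cells fell into 25 clusters made without the 9 genes and the stress and signalling genes listed beside them, 92 genes in all, and 9 classes were compared. Every marker of each class had UMIs in its own class in every mouse used. Markers of other lineages had UMIs too, such as 13 of 13 macrophage markers in B-like cells of both knockout mice. This is therefore no check of the class names. Levels are CPM of the summed cells of a class in a mouse, and values are given in the order knockout mouse 1, knockout mouse 2, control mouse 1, control mouse 2. In summed cells, fewer expressing cells and less RNA per cell cannot be told apart. The classes differed in cells: B-like cells numbered 4183 and 4777 in the knockout mice and 675 and 590 in the control mice, and monocyte/macrophage-like cells 1064 and 1365 against 6629 and 8005.

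The NR4A genes were spread differently over the leukocytes. Nr4a1 had its highest mean in B-like cells, at 1748, 1543, 1704 and 780 CPM (mean 1444 ± 451, SD, n = 4), followed by NK-like cells (1210 ± 297), monocyte/macrophage-like cells (982 ± 473) and conventional dendritic-like cells (955 ± 243). CD4 conventional T cells (922 ± 427), neutrophil-like cells (780 ± 95.3), Treg-like cells (688 ± 182, n = 3), CD8 T cells (598 ± 226) and plasmacytoid dendritic-like cells (536 ± 229, n = 3) came after. The ranges of each pair of neighbours in this order overlapped.

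Nr4a2 had its highest means in NK-like, CD8 T and CD4 conventional T cells. It stood at 691, 634, 463 and 375 CPM in NK-like cells (mean 541 ± 147), 526, 449, 273 and 388 in CD8 T cells (409 ± 107) and 549, 312, 166 and 597 in CD4 conventional T cells (406 ± 203). Treg-like cells followed at 248, 203 and 131 CPM (194 ± 58.8, n = 3, without knockout mouse 1), overlapping conventional dendritic-like cells (164 ± 27.7). In B-like cells, where Nr4a1 was highest, Nr4a2 was at 27.9, 27.6, 38.5 and 50.5 CPM, and up to 74.6% of that level could be free RNA by the estimate used here. Monocyte/macrophage-like cells (150 ± 15.1) and neutrophil-like cells (81.2 ± 32.4) did not overlap, though both levels are limited by free RNA as given below, and the other neighbours in the order overlapped. Nr4a3 led in neutrophil-like cells at 271, 214, 386 and 157 CPM (257 ± 97.6), overlapping NK-like cells (212 ± 104), CD4 conventional T cells (211 ± 146) and CD8 T cells (147 ± 69.2), and was lowest in B-like cells (34.9 ± 10.3).

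Egr1 was highest in neutrophil-like cells, at 333, 333, 600 and 372 CPM (410 ± 129), clear of every value in the next class. That class was B-like cells at 75.0, 76.3, 316 and 73.8 CPM, in which control mouse 1 alone was high. NK-like cells (128 ± 23.7), CD4 conventional T cells (106 ± 28.9), CD8 T cells (92.8 ± 26.0), conventional dendritic-like cells (86.6 ± 39.7) and monocyte/macrophage-like cells (60.0 ± 25.5) overlapped their neighbours. Egr2 had few UMIs and was highest in conventional dendritic-like cells (18.6 ± 5.0 CPM) and monocyte/macrophage-like cells (17.9 ± 9.5), which overlapped. In CD8 T cells Egr2 stood at 6.9, 4.9, 7.6 and 17.0 CPM, and up to 22.3% of it could be free RNA.

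The AP-1 genes had 4 different orders over the classes. Fos was highest in monocyte/macrophage-like cells, at 1452, 1533, 1403 and 1099 CPM (1372 ± 190), with neutrophil-like cells (1232 ± 511) and conventional dendritic-like cells (897 ± 154) next, then B-like cells (616 ± 300), and CD8 T cells (378 ± 134) and Treg-like cells (214 ± 15.9, n = 3) last. Fosb was highest in neutrophil-like cells at 188, 142, 176 and 126 CPM (158 ± 28.7), clear of monocyte/macrophage-like cells (104 ± 8.6). Jun ran the other way in neutrophil-like cells, where it had its lowest mean (356 ± 138 CPM), with means of 901 to 1002 CPM in NK-like, monocyte/macrophage-like and both dendritic-like classes. The Jun levels of neutrophil-like cells and of plasmacytoid dendritic-like cells, which had the highest mean, are limited by the free RNA estimate as given below. Junb was highest in CD4 conventional T cells at 6608, 4673, 4157 and 2399 CPM (4459 ± 1732), overlapping neutrophil-like cells (4295 ± 1288) and NK-like cells (3981 ± 1207), and only the lowest class, plasmacytoid dendritic-like cells (629 ± 192, n = 3), lay clear of its neighbour. After each cell was thinned to 1000 UMIs the class with the highest mean was unchanged for 8 of 9 genes, Junb moving to neutrophil-like cells.

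**Figure D1:**
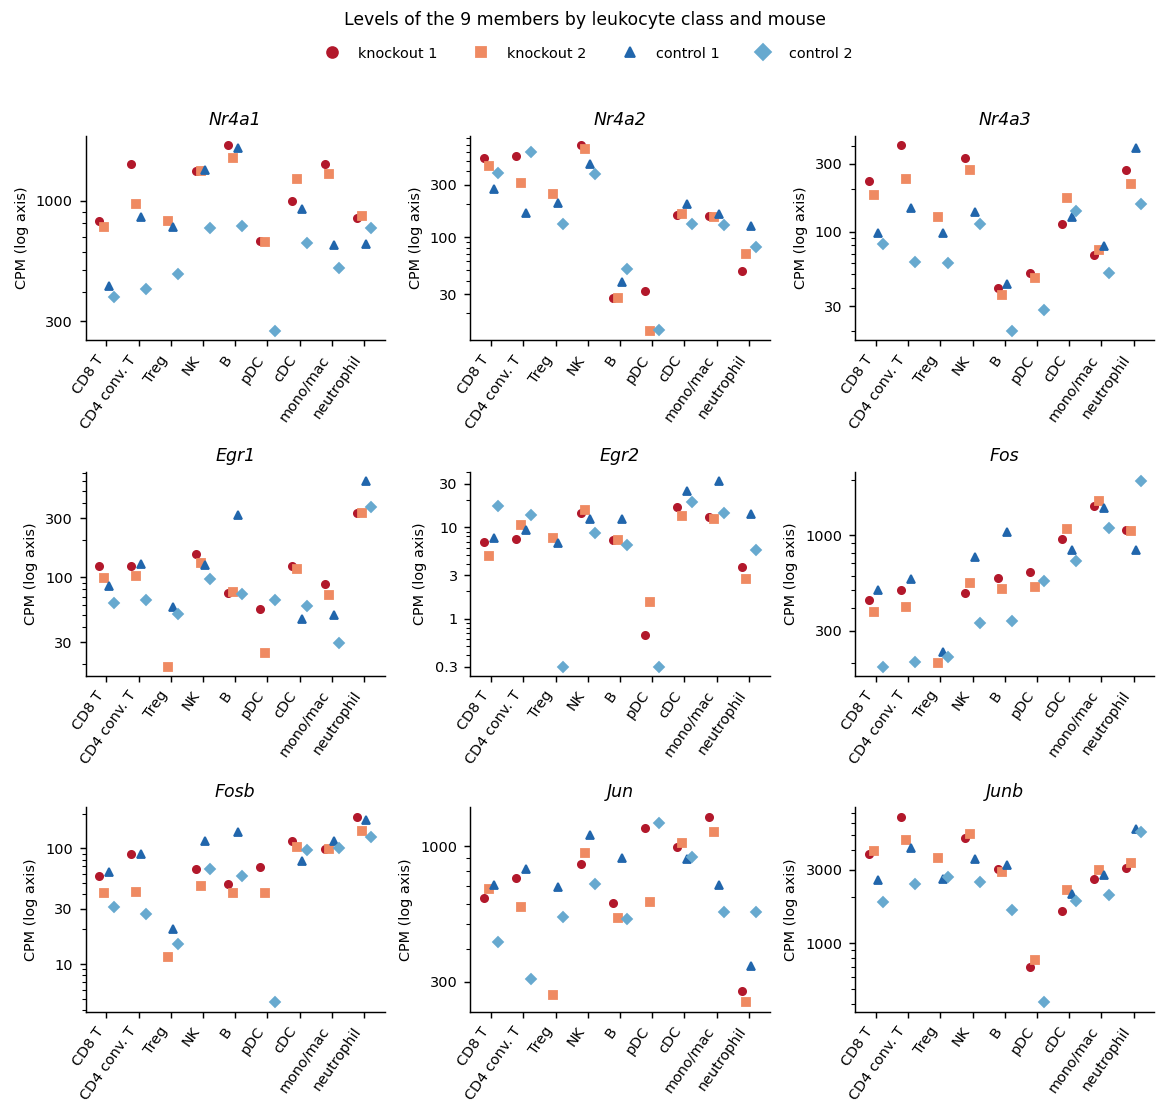
Level of each of the 9 genes (CPM, log axis) in 9 leukocyte classes, 1 panel per gene, 1 point per knockout or control mouse with at least 30 cells of the class, and values of 0 drawn at 0.3. Egr1 and Fosb points of neutrophil-like cells sit above those of the next class, while Nr4a1 points overlap from class to class; Egr2 was at 0 in Treg-like and plasmacytoid dendritic-like cells of control mouse 2.

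Free RNA from other cells limits some of these levels, and a level with an estimated share over 20% is read here as unreliable. In plasmacytoid dendritic-like cells the estimate passed 20% for each of the 9 members in at least 1 mouse. It came to 165% of the Nr4a1 level in control mouse 2 (48 cells), more than a share can be, so the estimate itself fails there. The B cell markers behind it stood at 86.6% of their library level in that mouse, against 8.2% and 18.5% in the knockout mice. Levels in this class are therefore read neither as expression nor as free RNA. In neutrophil-like cells the estimate passed 20% for Nr4a2 and Egr2 in 4 of 4 mice (up to 44.8% and 47.7%) and for Jun in 3 (up to 50.9%). It also passed 20% there for Nr4a1 in 2 (up to 26.0%) and for Fos in 1 (36.5%). In monocyte/macrophage-like cells it reached 26.9% for Nr4a2, 37.3% for Nr4a3, 29.8% for Egr1 and 21.0% for Junb. In conventional dendritic-like cells it passed 20% in control mouse 2 only, for Nr4a1, Nr4a2, Egr1, Fos, Fosb and Junb (21.4% to 37.7%). It reached 31.0% for Nr4a3 in B-like cells, and in Treg-like cells 31.1% for Egr1, 26.2% for Fos and 34.9% for Fosb. In NK-like and CD4 conventional T cells no member passed 20%.

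Control mouse 1 stood above control mouse 2 for most members in lymphocytes. Over CD8 T, CD4 conventional T, NK-like and B-like cells, Fos was 2.32 to 3.07 times as high in control mouse 1, Fosb 1.75 to 3.30 times, Jun 1.54 to 2.66 times, Egr1 1.29 to 4.29 times and Junb 1.38 to 1.97 times. Nr4a1 (1.11 to 2.18 times) and Nr4a3 (1.20 to 2.38 times) showed the same order in 4 of 4 classes, and Nr4a2 in 1 of 4 (0.28 to 1.23 times). Between knockout mouse 1 and knockout mouse 2 the ratios were 0.88 to 1.24 for Fos, 0.91 to 1.28 for Jun, 0.98 to 1.26 for Egr1 and 0.95 to 1.41 for Junb, and they reached 1.51 for Nr4a1, 1.71 for Nr4a3, 1.76 for Nr4a2 and 2.11 for Fosb. A list of 20 dissociation genes (such as Ier2, Btg2, Dusp1 and Zfp36) summed to 5235 CPM in control mouse 1 and 3340 in control mouse 2 in CD8 T cells, 9417 and 5388 in NK-like cells and 6915 and 3905 in B-like cells. The part of handling in this spread was not tested.

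The 9 genes did not vary as one group over the 34 sums of a class in a mouse. Fos and Fosb went together most closely (Pearson r = 0.73 of log2(CPM + 1), a description over sums that share libraries and depth), followed by Nr4a3 with Junb (0.68), Nr4a2 with Nr4a3 (0.61) and Nr4a2 with Junb (0.59). Nr4a2 with Fos (-0.29) and Jun with Junb (-0.27) had weak negative values, and Nr4a1 with Nr4a2 was at 0.07. The sums include those of plasmacytoid dendritic-like and neutrophil-like cells, with the limits from free RNA given above. Among 5804 genes compared, the closest to Nr4a2 were Dok2 (0.90), Ifngr1 (0.89) and Id2 (0.89), and the closest to Fos were Zfp36 (0.89), Nfe2l2 (0.85) and Sec24b (0.84), Zfp36 being a gene of the dissociation list. Ier2, of the same list, was among the closest to Nr4a1, and Gadd45b, of the receptor-induced list, among the closest to Nr4a3. Nr4a1 was closest to Vezf1 (0.76), BC005624 (0.72) and Ier2 (0.71), and Nr4a3 to Nabp1 (0.85), Prdx6 (0.83) and Gadd45b (0.82). Egr1 was closest to Fgd3 (0.85), Taf7 (0.82) and Numb (0.81), and Egr2 to Klf9 (0.70), Sulf2 (0.69) and Etv3 (0.68). Fosb was closest to Vav3 (0.87), Ptpn12 (0.82) and Bcl6 (0.80), Jun to Tgs1 (0.75) and Usf1 (0.74), and Junb to Neurl3 (0.88), Lysmd3 (0.84) and Bcl2a1b (0.84).

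Within CD8 T cells the members were also compared cell by cell. After thinning to 1000 UMIs, 30.9%, 28.6%, 17.8% and 24.3% of CD8 T cells had a Nr4a2 UMI (57.8%, 56.9%, 40.5% and 45.3% before thinning). In B-like cells, whose Nr4a2 level is mostly within the estimate of free RNA in the knockout mice, the shares were 2.1%, 2.5%, 3.0% and 3.4% (6.8%, 6.5%, 7.1% and 8.1% before thinning), which serves as the background. Median UMIs per cell before thinning were 4706, 4602, 4325 and 3931 in CD8 T cells and 3054, 2864, 2205 and 2418.5 in B-like cells. In the thinned cells, CD8 T cells with a Nr4a2 UMI held 2.33, 2.20, 1.75 and 1.72 times the Nr4a1 level of cells without one, and 2.85, 1.85, 2.22 and 2.70 times the Nr4a3 level. Their Fos level was 1.02, 1.16, 0.84 and 0.89 times and their Jun level 1.11, 1.03, 1.11 and 0.99 times that of the other cells, so Fos and Jun were about even. Egr1 (1.98, 1.34, 3.51 and 1.99 times) and Junb (1.89, 1.81, 1.27 and 1.48 times) went with the NR4A genes, being higher in cells with a Nr4a2 UMI in 4 of 4 mice. A list of 20 genes induced by the T cell receptor (such as Irf4, Myc, Tnfrsf9 and Ccl4) was 1.91, 1.85, 2.48 and 2.66 times as high in cells with a Nr4a2 UMI. The dissociation list was 1.48, 1.45, 1.14 and 1.26 times as high in them, and 12 heat shock genes 1.30, 1.26, 1.17 and 1.10 times. In CD8 T cells with a Fos UMI, Jun was 1.49, 1.44, 1.37 and 2.21 times as high, the dissociation list 1.21, 1.22, 1.31 and 1.59 times and the receptor-induced list 1.24, 1.14, 0.85 and 1.02 times, so the lists differed more in the control mice than in the knockout mice. There Nr4a1 was 1.18, 1.29, 0.99 and 1.63 times as high, Nr4a2 1.10, 1.14, 0.64 and 0.96 times and Nr4a3 0.93, 1.39, 0.87 and 1.60 times, with no common direction. Free RNA was estimated at 21.8%, 23.6%, 8.6% and 22.3% of the Fos level of CD8 T cells, over the 20% above which a level is read here as unreliable in 3 of 4 mice, and 24.1% to 54.1% of thinned B-like cells had a Fos UMI against 30.6%, 22.6%, 34.0% and 14.5% of CD8 T cells (65.0%, 59.6%, 65.6% and 32.5% before thinning), so no class gave a background share for Fos. A cell with a Fos UMI is therefore not read as a cell that expresses Fos. These ratios are descriptions within a mouse, and cells of 1 mouse are not replicates. The part of the T-like clusters in them was not tested.

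PD-1, encoded by Pdcd1, is a receptor that T cells display after antigen receptor signals. CD8 T cells were divided in each mouse into those with a Pdcd1 UMI (416, 453, 137 and 275 cells) and those without (914, 699, 392 and 325). They came from T-like clusters that differed. Pdcd1 was among the leading genes of the cluster led by Cd8a and Cd8b1, and Lef1 and Tcf7 among those of the cluster led by Dapl1 and Igfbp4. The part of these clusters in the comparison was not tested. All 3 NR4A genes were higher with Pdcd1, and none of the EGR and AP-1 genes passed the test. Nr4a2 stood at 962, 778, 619 and 573 CPM in cells with a Pdcd1 UMI and 357, 258, 123 and 185 without, a log2 change of 1.49 ± 0.12 (SE, adjusted p = 1.83e-05, edgeR quasi-likelihood test with mouse as a block). Nr4a3 stood at 380, 272, 160 and 98.2 CPM against 169, 126, 70.8 and 62.5 (0.82 ± 0.11, adjusted p = 0.000439). Nr4a1 stood at 1263, 1054, 613 and 453 CPM against 641, 607, 345 and 305 (0.56 ± 0.09, adjusted p = 0.00185). Each of the 3 was higher with Pdcd1 in 4 of 4 mice, as were 36.3% of all genes. Thus 3 of 9 members were called, against 14.2% of 9700 genes in the comparison and 7.15% called upward.

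Fos and Jun did not share this rise. Fos stood at 440, 382, 321 and 114 CPM with a Pdcd1 UMI and 441, 380, 578 and 274 without (log2 change -0.72 ± 0.24, adjusted p = 0.115), even in the knockout mice and lower with Pdcd1 in the control mice, with the limit from free RNA given above for Fos. Jun stood at 649, 744, 642 and 296 CPM against 627, 648, 735 and 570 (-0.45 ± 0.17, adjusted p = 0.136). Junb stood at 5025, 5103, 2736 and 1983 CPM against 3273, 3282, 2500 and 1725, higher with Pdcd1 in 4 of 4 mice, with a change of 0.16 ± 0.11 (adjusted p = 0.383) after scaling. Fosb (-0.01 ± 0.20), Egr1 (0.09 ± 0.18) and Egr2 (-0.08 ± 0.28) were not called. The TMM factors used here set the median of all genes near 0, whereas on UMI totals alone that median was 0.23, and changes are relative to it: on totals alone Nr4a1, Nr4a2 and Nr4a3 changed by 0.80, 1.73 and 1.05 and Junb was called too (0.40, adjusted p = 0.00985), while Fos (-0.49) and Jun (-0.21) stayed below 0 and Fosb (0.22) and Egr2 (0.15) turned positive, uncalled. In cells thinned to 1000 UMIs the log2 changes of Nr4a1, Nr4a2 and Nr4a3 were 0.75, 1.29 and 0.88, all called.

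The gene lists were read in the same comparison. They were chosen with earlier results of these data known and stand beside the members as a description, not as independent support. Of the 20 receptor-induced genes, 14 rose and 0 fell, with a median log2 change of 1.11 against 0.01 over all genes, among them Ctla4 (1.75), an inhibitory receptor, Ccl4 (1.25), a chemokine, Il2ra (2.00), an IL-2 receptor chain, and Bhlhe40 (1.57), a transcription factor. Of the 20 dissociation genes, 2 rose (Gem, 0.49, and Dusp1, 0.35) and 1 fell (Socs3, -2.08), with a median of -0.15. Of the 12 heat shock genes, 0 rose and 1 fell (Hspb1, -0.78). Of 20 regulators upstream of the members, 4 rose and 1 fell: the CREB family gene Crem (1.29), the phosphatases Dusp5 (0.75) and Dusp4 (2.00), which switch off ERK, and Elk3 (1.05) rose. Of 7 further genes that could be tested, of the 3 families or close to them, Nab2 (0.78), a corepressor of EGR factors and not one of them, and Fosl2 (0.51) rose. Summed dissociation levels were 7710, 7031, 5120 and 3249 CPM with Pdcd1 and 6002, 5743, 5285 and 3439 without, higher with Pdcd1 in the knockout mice only. Summed heat shock levels were 17339, 16725, 11267 and 7651 CPM with Pdcd1 and 12946, 13647, 10687 and 8310 without, higher with Pdcd1 in 3 of 4 mice.

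T cells that divide after their receptor is engaged pass that receptor on, and cells with the same beta chain were taken here as a clone. The alpha chain was not used, so neither a shared receptor nor its engagement was tested. CD8 T cells of expanded clones (at least 2 cells, with 735, 618, 94 and 322 cells) were compared with those of single-cell clones (466, 410, 397 and 238). This was a second division of the same CD8 T cells, and the part of the T-like clusters in it was not tested either. The NR4A genes and Egr1 were higher in expanded clones. Nr4a2 stood at 836, 646, 674 and 566 CPM in expanded clones and 184, 206, 189 and 140 in single-cell clones (log2 change 1.64 ± 0.11, adjusted p = 1.49e-07, edgeR quasi-likelihood test). No mouse overlapped another across the 2 kinds of clone for Nr4a2, whichever the genotype. Nr4a3 stood at 323, 228, 181 and 96.8 CPM against 115, 116, 77.3 and 57.0 (0.85 ± 0.12, adjusted p = 8.5e-05). Nr4a1 stood at 1207, 1072, 751 and 421 CPM against 413, 449, 343 and 297 (0.84 ± 0.13, adjusted p = 0.000198), so the step was smallest in control mouse 2.

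Egr1 stood at 173, 132, 123 and 64.3 CPM in expanded and 75.0, 66.6, 76.3 and 55.1 CPM in single-cell clones (0.56 ± 0.13, adjusted p = 0.00627). Leaving out knockout mouse 1 or knockout mouse 2 ended that call (log2 change 0.43, adjusted p = 0.089, and 0.49, adjusted p = 0.078). Junb stood at 5204, 4967, 2937 and 1981 CPM against 2280, 2739, 2423 and 1654 and did not pass the test (0.37 ± 0.13, adjusted p = 0.0702). Fos (-0.75 ± 0.30, adjusted p = 0.174), Jun (-0.28 ± 0.11, adjusted p = 0.102), Fosb (0.09 ± 0.17) and Egr2 (0.08 ± 0.31) were not called. In all, 4 of 9 members were called, against 21.2% of 10212 genes, 10.7% of genes being called upward. On UMI totals alone, where the median of all genes was 0.29, the same 4 were called, Junb changed by 0.65 (adjusted p = 0.0533), Fos by -0.47 and Jun by 0.00.

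**Figure D2:**
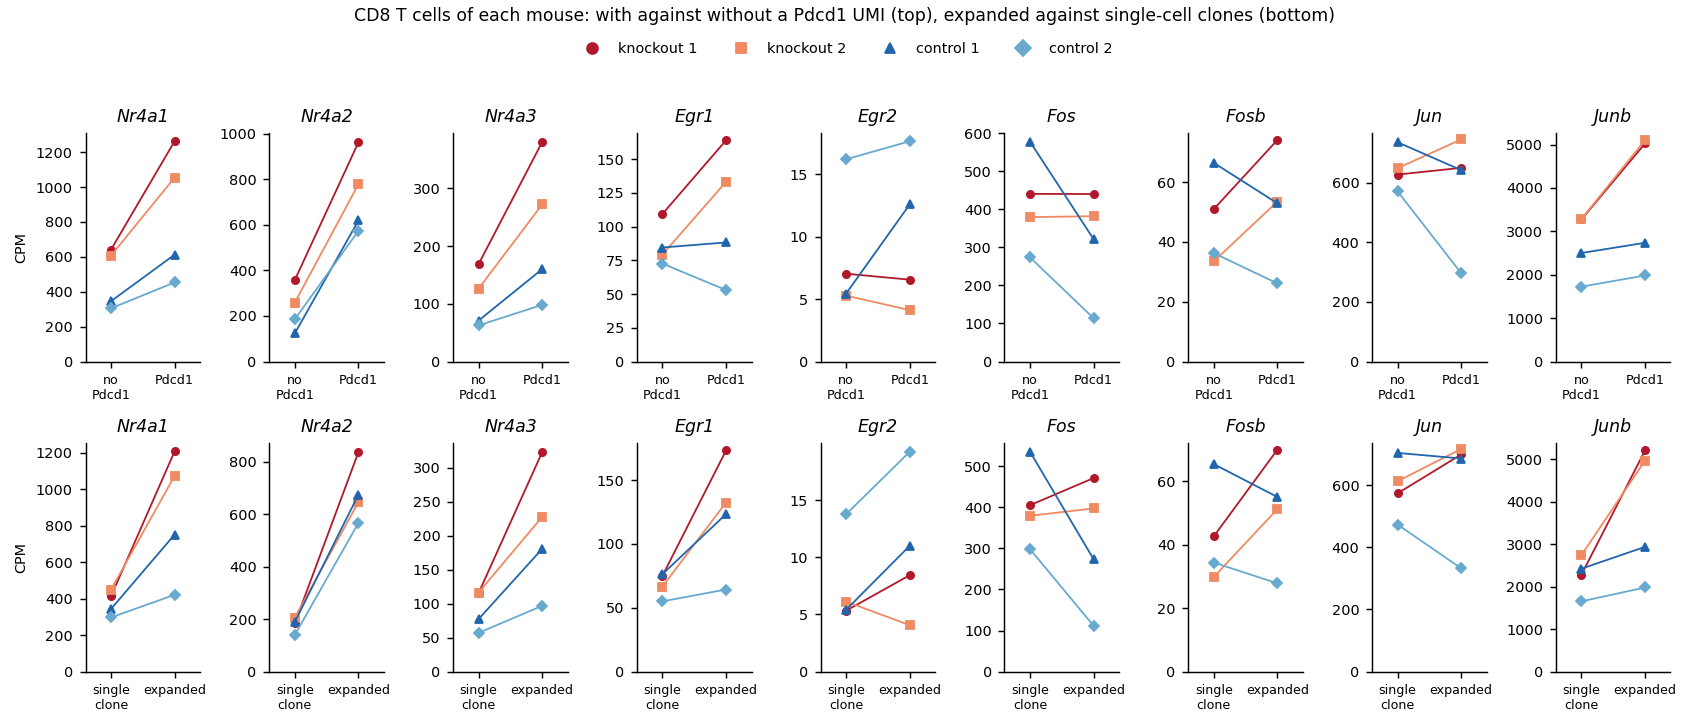
Level of the 9 genes (CPM, axes from 0) in CD8 T cells of each mouse, with and without a Pdcd1 UMI in the top panels and of expanded and single-cell clones in the bottom panels; a line joins the 2 values of a mouse. Lines of Nr4a1, Nr4a2 and Nr4a3 slope the same way in 4 of 4 mice in both comparisons, and those of Fos run the other way in the control mice.

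Of the receptor-induced list, 16 of 20 genes rose in expanded clones and 0 fell (median 1.13), with Ccl4 (2.59), Ccl3 (2.86) and Xcl1 (1.50), chemokines of activated CD8 T cells, and Gadd45b (1.27) having the smallest p values. Of the dissociation list, 3 rose and 1 fell (median -0.09), and of the heat shock list 1 rose (Hsph1, 0.55). Of the upstream list, 6 rose and 0 fell, including Dusp4 (1.63), Dusp5 (0.83), Elk3 (0.97) and Mapk3 (1.08), which encodes the kinase ERK1. Among 9 further genes tested, of the 3 families or close to them, Nab2 rose (0.87) and Maff (-0.80) and Fosl1 (-2.07) fell. Summed dissociation levels were 7806, 7076, 5602 and 3191 CPM in expanded and 5088, 5202, 5100 and 3429 CPM in single-cell clones, higher in expanded clones in 3 of 4 mice. Summed heat shock levels were 16940, 17231, 11791 and 7923 CPM against 11092, 11852, 10397 and 7882, higher in 4 of 4 mice. These sums are on UMI totals alone, and the part of stress genes in the NR4A values was not tested.

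**Figure D3:**
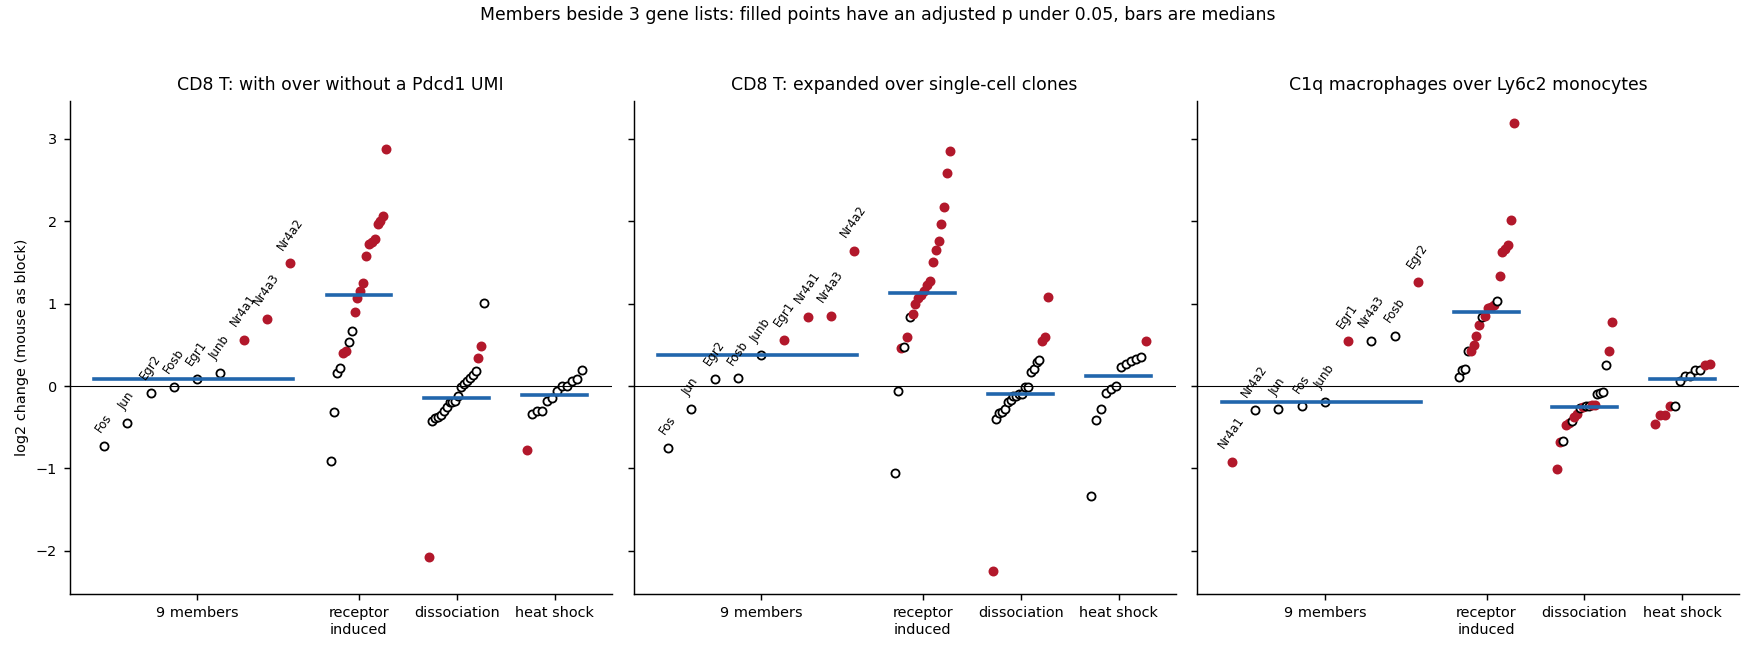
Log2 change of each member and of each gene of the receptor-induced, dissociation and heat shock lists in 3 comparisons within mice (CD8 T cells with against without a Pdcd1 UMI, expanded against single-cell clones, C1q macrophages against Ly6c2 monocytes). Filled points had an adjusted p under 0.05 and bars are medians; in the CD8 T cell comparisons the medians of the receptor-induced list are 1.11 and 1.13, and those of the dissociation list are -0.15 and -0.09.

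In monocytes and macrophages, which carry no T cell receptor, 1 NR4A gene was lower and both EGR genes were higher in C1q macrophages, and no AP-1 gene passed the test. C1q genes mark macrophages and Ly6c2 marks monocytes. Cells with at least 3 C1q UMIs (277, 163, 2406 and 2739) were compared with cells with Ly6c2 and no C1q UMI (518, 815, 3012 and 3798). This division does not part resident from recruited macrophages. Nr4a1, known for its role in the survival of patrolling monocytes, was lower in C1q macrophages, at 756, 715, 498 and 415 CPM against 1751, 1572, 799 and 571 (log2 change -0.92 ± 0.14, adjusted p = 0.00456, edgeR quasi-likelihood test). Egr2 stood at 19.0, 17.8, 42.9 and 20.7 CPM against 9.0, 7.5, 17.8 and 7.4 (1.26 ± 0.10, adjusted p = 0.000171), a step of similar size in every mouse. Egr1 stood at 108, 88.9, 56.4 and 38.2 CPM against 60.5, 66.0, 43.6 and 23.1 (0.54 ± 0.10, adjusted p = 0.00555), also higher in 4 of 4 mice, in cells of a class where free RNA passed 20% of the Egr1 level in 2 mice.

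Fosb (0.61 ± 0.19, adjusted p = 0.0658), Fos (-0.24 ± 0.08, adjusted p = 0.0569), Jun (-0.28 ± 0.11, adjusted p = 0.0938), Nr4a3 (0.55 ± 0.30), Nr4a2 (-0.29 ± 0.36) and Junb (-0.19 ± 0.11) did not pass. These 3 of 9 calls stand against 26.6% of 13174 genes called in the comparison, so their number is near the background, and it was 6 without knockout mouse 1, where 25% of genes were called. Of the dissociation list 9 of 20 genes fell and 2 rose in C1q macrophages, and of the heat shock list 4 of 12 fell and 2 rose. The receptor-induced list rose in 14 of 20 genes (median 0.90), with the smallest p values for Tnfrsf9 (3.19), Cd69 (0.85), Tnf (0.99) and Dusp2 (0.50), genes that myeloid cells also use, and it held T cell genes too, such as Ctla4 and Icos. Of 10 further genes, of the 3 families or close to them, 4 rose (among them Batf3, 0.84, Maff, 0.66, and Nab2, 0.62) and 4 fell (among them Nab1, -0.64).

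Between genotypes, the members were tested in 6 classes other than CD8 T cells. Nr4a1 and Jun were higher in knockout monocyte/macrophage-like cells, Nr4a2 and Nr4a3 in knockout NK-like cells and Egr1 in knockout conventional dendritic-like cells, and no member was called in B-like, neutrophil-like or CD4 conventional T cells. With 2 mice per genotype, an exact two-sided permutation test cannot go below p = 0.33, and the edgeR tests borrow their estimate of spread from all genes. The classes come from the same 4 mice.

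In monocyte/macrophage-like cells Nr4a1 reached 1457 and 1315 CPM in knockout mice against 644 and 512 in control mice (log2 change 1.13 ± 0.14, adjusted p = 0.00246). Jun stood at 1297 and 1135 CPM against 710 and 559 (0.81 ± 0.14, adjusted p = 0.00956). Fos, the usual partner of Jun in AP-1, was at 1452 and 1533 against 1403 and 1099 CPM, with a change smaller than its standard error (0.13 ± 0.15, adjusted p = 0.564). For Nr4a1, Jun, Egr1 and Fos both knockout mice lay above both control mice, and for Egr2 and Fosb both lay below. The share of all genes lying apart in this way is not given for this class, so no count is read from it. Egr1 (87.8 and 72.6 against 49.9 and 29.7 CPM, 0.88 ± 0.24, adjusted p = 0.058) missed the threshold, and its level there is limited by free RNA as given above. Egr2 (-0.99 ± 0.45), Fosb (-0.27 ± 0.12), Junb (0.09 ± 0.17), Nr4a2 (-0.04 ± 0.13) and Nr4a3 (0.01 ± 0.21) were not called. The 2 of 9 members called stand against 20.9% of 14259 genes called in this class (9.88% upward), so their number is at the background. It was 6 without control mouse 1 (35.2% of all genes called in that fit), 5 without control mouse 2 (28.3%) and 1 without knockout mouse 1 (4.02%) or knockout mouse 2 (4.68%), and on UMI totals alone, where the median of all genes was 0.14, the same 2 were called.

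The genotypes differed in which cells made up the class. A cluster led by Igf1, Pf4 and Gpnmb held 34.2% and 36.6% of the class in the knockout mice and 6.6% and 2.6% in the control mice, and a cluster led by Ccl2 held 8.3% and 11.4% against 35.5% and 26.7%. Nr4a1 was higher in both knockout mice within each cluster: 2255 and 1713 against 886 and 413 CPM in the cluster led by Ace, 1782 and 1826 against 871 and 656 in that led by Vcan, 1198 and 1040 against 613 and 553 in that led by Ccl2, 991 and 1115 against 434 and 251 in that led by Igf1, and 820 and 781 against 414 and 283 in that led by Cxcl9 and Ccl24. It was not called in the Ace cluster (log2 change 1.62, adjusted p = 0.0799). The Jun call was lost within the Ccl2 cluster (0.29, adjusted p = 0.418) and the Vcan cluster (0.43, 0.123), and without knockout mouse 1 (0.105) or knockout mouse 2 (0.0783).

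Other gene groups moved with genotype in the same cells. Of 12 heat shock genes 8 rose and 0 fell in knockout monocyte/macrophage-like cells (median 0.83), the smallest p values being those of Hspa1b (1.71), Hspa1a (1.81), Dnajb1 (1.57) and Hsph1 (1.74), and their sum was 11114 and 11115 CPM against 6874 and 5893. Of 20 dissociation genes 2 rose (Ppp1r15a, 0.86, and Ier2, 0.73) and 3 fell (Ier3, -2.12, Socs3, -1.28, and Mcl1, -0.67), with sums of 11056 and 9651 CPM against 11736 and 8838. Of the receptor-induced list 6 of 20 rose and 2 fell. B cell markers, 8 of 8 with UMIs in every mouse, summed to 452 and 439 CPM in knockout and 37.8 and 19.3 in control monocyte/macrophage-like cells, and free RNA was estimated at 9.0% to 17.9% of the Nr4a1 level and 8.9% to 16.9% of the Jun level. The part of these in the genotype difference was not tested.

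In NK-like cells Nr4a3 stood at 330 and 268 CPM in the knockout and 136 and 113 in the control mice (1.18 ± 0.15, adjusted p = 0.00248), and it stayed called when any 1 mouse was left out (1.04 to 1.35). Nr4a2 stood at 691 and 634 CPM against 463 and 375 (0.59 ± 0.14, adjusted p = 0.042), a call that ended when knockout mouse 1 (0.341) or knockout mouse 2 (0.263) was left out or doublets were kept (0.0508). Junb (4836 and 5080 against 3512 and 2493 CPM, 0.66 ± 0.17, adjusted p = 0.0638) did not overlap between genotypes and was not called, but on UMI totals alone it was (0.72, adjusted p = 0.0347), making 3 members. Fosb (-0.79 ± 0.30), Nr4a1 (0.27 ± 0.29), Egr1 (0.27 ± 0.16), Egr2 (0.35 ± 0.28), Fos (-0.17 ± 0.48) and Jun (-0.09 ± 0.21) were not called either. These 2 of 9 compare with 4.36% of 10324 genes called, 2.5% upward, and the count was 1 without knockout mouse 1 (1.19% of genes) or knockout mouse 2 (0.979%), 5 without control mouse 1 (8.03%) and 6 without control mouse 2 (8.09%).

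A cluster led by Gzmc, Klrb1b and Cd200r2 held 59.8% and 58.1% of knockout and 10.8% and 29.8% of control NK-like cells. Within it and within the other NK-like cluster Nr4a2 was called, with log2 changes of 0.78 and 0.83. Crem (1.03), Tnf (1.77) and Icos (1.02) rose in knockout NK-like cells, and of the 12 heat shock genes 1 rose (Dnaja1, 1.13; median 0.60), with sums of 14336 and 14469 CPM against 11040 and 7780. Of the dissociation list 1 gene rose (Btg2, 0.59) and 1 fell (Ier3, -1.20), and its sums were 8997 and 8877 CPM against 9417 and 5388. Macrophage markers, 11 to 13 of 13 with UMIs (C1qa, Adgre1, Fcgr1 and Ms4a7 at 0 in 1 or 2 mice), summed to 536 and 654 CPM in knockout and 601 and 786 CPM in control NK-like cells. These sums were 7.8% and 9.5% of the level in the whole library in the knockout mice and 3.2% and 3.6% in the control mice. Free RNA was estimated at no more than 12.9% of any member's level.

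In conventional dendritic-like cells Egr1 stood at 123 and 118 CPM in the knockout and 46.5 and 58.7 in the control mice (1.27 ± 0.15, adjusted p = 0.00329). Free RNA was estimated at 5.7% to 24.5% of these Egr1 levels, highest and over 20% in control mouse 2. Fos (947 and 1084 against 832 and 725 CPM, 0.45 ± 0.12, adjusted p = 0.0514) and Nr4a1 (997 and 1246 against 920 and 656 CPM, 0.57 ± 0.18, adjusted p = 0.0916) fell short of the threshold, and the other 6 members were not called. The 1 of 9 called compares with 9.18% of 10081 genes, 4.33% upward, and leaving out knockout mouse 1 or 2 gave 4 or 2 (11.6% and 15.6% of genes). Here 9 of 12 heat shock genes rose and 0 fell (median 0.75), summing to 14557 and 13917 CPM against 9734 and 8276. B cell markers summed to 163 and 368 CPM against 11.1 and 58.7, with 3 of 8 having UMIs in control mouse 1 (Ms4a1, Pax5, Ighd and Fcmr among those at 0) and 8 of 8 in the other mice, and the part of either was not tested.

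No member was called in B-like cells (0.178% of 11208 genes called), in neutrophil-like cells (5.57% of 8849) or in CD4 conventional T cells (0.228% of 8324) by edgeR. At an unadjusted p under 0.05 there were 2 members in B-like cells (11.8% of genes; Nr4a2, -0.61 ± 0.19, and Fosb, -1.06 ± 0.37), 4 in neutrophil-like cells (20.9% of genes; Nr4a2, -0.77 ± 0.30, Egr2, -1.46 ± 0.62, Jun, -0.71 ± 0.31, and Junb, -0.70 ± 0.29, the first 3 with free RNA over 20% as given above) and 3 in CD4 conventional T cells (12.6% of genes). The 3 were Nr4a3 (403 and 235 against 145 and 61.0 CPM, 1.70 ± 0.48, adjusted p = 0.25), Nr4a1 (0.96 ± 0.39) and Junb (0.81 ± 0.30). DESeq2 called 0, 0 and 1. Without control mouse 1 the counts were 5, 4 and 4 (10.7%, 17.8% and 3.56% of genes in the same order), and without control mouse 2 they were 4, 4 and 0 (0.901%, 12.9% and 0.149%). Without knockout mouse 1 they were 0, 0 and 1 (0.718%, 2.42% and 1.32%), and without knockout mouse 2 again 0, 0 and 1 (0.636%, 7.55% and 2.63%). In B-like cells Egr1 was at 75.0 and 76.3 CPM in the knockout and 316 and 73.8 in the control mice, so its log2 change of -1.31 ± 0.68 came from 1 mouse. Among neutrophil-like cells, granule-rich cells led by Camp, Ngp and Ltf were a small part of the class except in control mouse 2, where the larger cluster held 77.4% of cells against 94.2% to 97.5% in the other mice.

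In CD8 T cells, where the members were chosen, the values are a description. Nr4a1 was at 814 and 771 CPM in knockout against 426 and 382 in control mice (log2 change 1.00), Nr4a3 at 228 and 180 against 97.8 and 81.1 (1.22), and Nr4a2 at 526 and 449 against 273 and 388 (0.61). Egr1 (0.62), Junb (0.82), Fos (0.25), Jun (0.23) and Fosb (0.10) had positive changes, and Egr2 was lower in the knockout mice (6.9 and 4.9 against 7.6 and 17.0 CPM). Both knockout mice lay above both control mice for 5 of 9 members, against 21.1% of 10622 genes, and 1.2% of genes were called in either direction. The change of Nr4a1 was 1.17 within cells with a Pdcd1 UMI and 0.94 within cells without, 0.93 within the cluster led by Cd8a and Cd8b1 and 0.49 within the cluster led by Dapl1 and Igfbp4. That of Nr4a3 was 1.41, 1.14, 1.07 and 0.94 in the same order, and that of Nr4a2 0.59, 1.03, 0.35 and 1.08.

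Fos, Fosb and Jun in CD8 T cells depended on the control mouse. Without control mouse 1 their log2 changes between genotypes were 1.22, 0.78 and 0.74, and without control mouse 2 they were -0.31, -0.37 and -0.13. Crem rose in knockout CD8 T cells (1.10, adjusted p = 0.027) and Dusp4 fell (-1.66, adjusted p = 0.039), of 20 upstream genes. Of 20 receptor-induced genes and of 20 dissociation genes 0 were called in either direction (11 and 6 at an unadjusted p under 0.05), with medians of 0.16 and 0.62. The sums were 5616 and 5544 against 5070 and 4730 CPM for the receptor-induced list, 6479 and 6214 against 5235 and 3340 for the dissociation list, and 14173 and 14773 against 10862 and 7966 for the heat shock list, of which 1 of 12 was called (Dnaja1, 1.25). Macrophage markers, 12 or 13 of 13 with UMIs (Ms4a7 at 0 in control mouse 1), summed to 885 and 833 against 667 and 921 CPM. That was 12.9% and 12.1% of their level in the whole library in the knockout mice and 3.5% and 4.2% in the control mice. The part of these markers in the values was not tested.

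**Figure D4:**
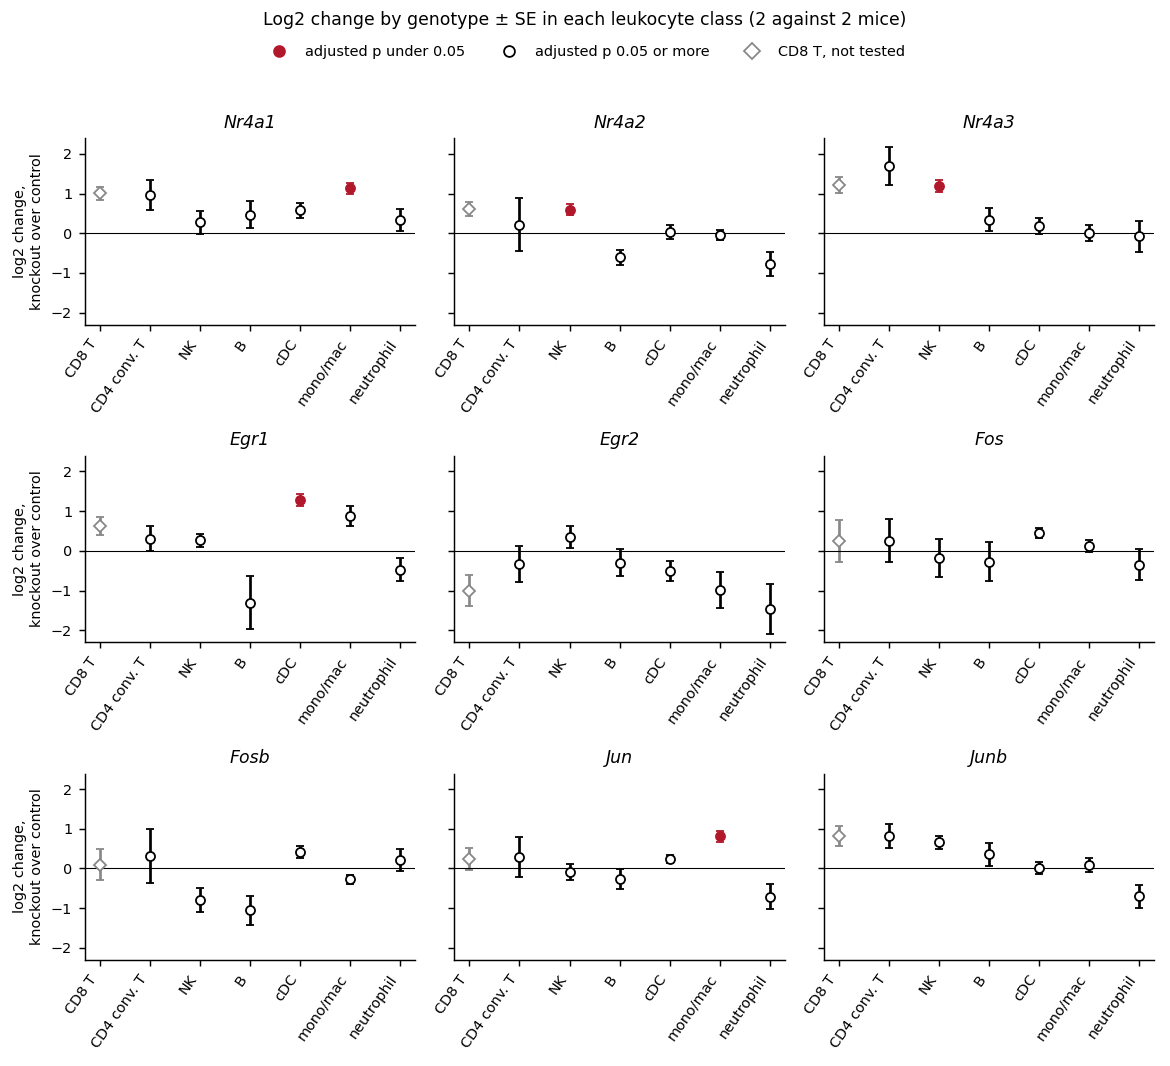
Log2 change between knockout and control mice (points, with standard errors as bars) of the 9 genes in 7 classes. Filled red points had an adjusted p under 0.05 (Nr4a1 and Jun in monocyte/macrophage-like cells, Nr4a2 and Nr4a3 in NK-like cells, Egr1 in conventional dendritic-like cells), and grey diamonds are CD8 T cells, which were not tested.

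**Figure D5:**
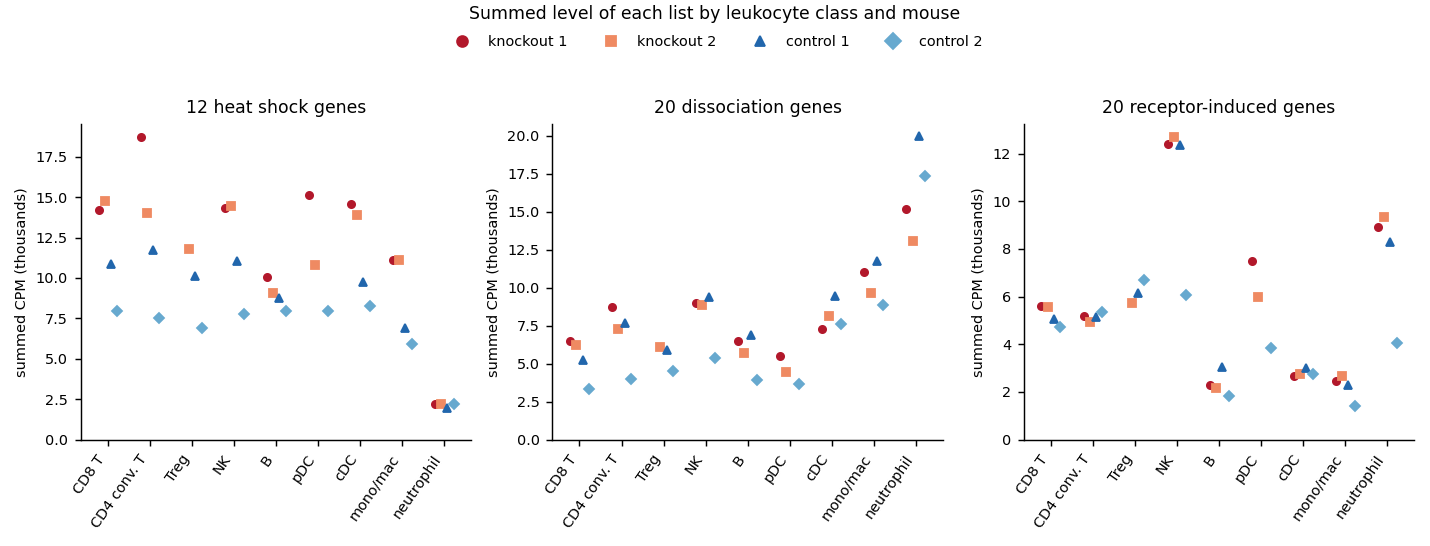
Summed level of the 12 heat shock, 20 dissociation and 20 receptor-induced genes in 9 classes, as CPM divided by 1000, 1 point per mouse. The heat shock sum lies higher in both knockout mice than in both control mice in CD8 T, CD4 conventional T, NK-like, B-like, monocyte/macrophage-like and conventional dendritic-like cells, and in neutrophil-like cells it lies between 1978 and 2216 CPM.

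Whether the genotype difference of a member differed between a lymphoid and a myeloid class was tested in the largest of each, B-like and monocyte/macrophage-like cells. Jun passed: its log2 change was -0.26 in B-like cells (606 and 527 against 902 and 522 CPM) and 0.81 in monocyte/macrophage-like cells, a difference of -0.95 ± 0.19 (adjusted p = 0.0177, edgeR interaction term with mouse as a block), lost without knockout mouse 2 (adjusted p = 0.0849). The count of called members was 2 without knockout mouse 1 (3.11% of genes), 5 without control mouse 1 (9.86%) and 5 without control mouse 2 (6.62%). Egr1 (-1.86 ± 0.47, adjusted p = 0.108) and the other 7 members did not pass, against 4.96% of 13418 genes called, 3.16% in the direction of Jun. In the same test 4 of 12 heat shock genes and 6 of 19 receptor-induced genes were called, each with the smaller change in B-like cells. On UMI totals alone, where the median of all genes was -0.19, Jun changed by -1.23 (adjusted p = 0.00294) and Egr1 passed as well (-2.14, adjusted p = 0.047).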

How the data were processed

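The matrices hold UMI counts as deposited, unscaled, per gene and barcode, 1 matrix for each of 4 mice. The submitters' processing notes name Cell Ranger 8.0.1, Seurat 5.0.1, R 4.4.1 and the build GRCm39; the annotation release is not given in the sources used here. The deposited contig tables of receptor chains hold UMI counts and read counts, and the other deposited columns are barcodes, gene names and labels of chains.

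The members and gene lists were chosen with earlier results of these data known. Barcodes needed 200 genes and no more than 10% mitochondrial UMIs, and Scrublet doublets were removed (309, 471, 447 and 515). Clusters (scanpy 1.11.5, 2000 variable genes, 30 components, 20 neighbours, Leiden resolution 1) were made without the listed genes and named from fixed markers (at least 3, 2-fold and in 10% of cells). Within T-like clusters, CD8 T cells had a Cd8a or Cd8b1 UMI and no Cd4 UMI, and CD4 cells the reverse. Class names are rebuilt here and are not the submitters'.

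UMIs were summed per mouse and class with at least 30 cells. The sums were tested with edgeR 4.0.16 (robust quasi-likelihood fits after filterByExpr, with TMM factors; two-sided p values adjusted by Benjamini-Hochberg over all genes of a fit, threshold 0.05), checked on simulated counts. Printed CPM use UMI totals alone and log2 changes use TMM factors. A clone was defined by the beta chain with most UMIs (V, J and CDR3 nucleotide sequence). Free RNA was estimated from another lineage's markers in a class against the whole library, and a level with over 20% was read as unreliable. Promoters used GENCODE canonical starts on GRCm39. Named genes were all 9 members in every comparison, at most 4 called genes per list by p, and the 3 genes most correlated with each member among those with a mean of at least 20 CPM; list genes beyond these were named after their values were seen, and 1 gene correlated with Jun and 1 B cell marker are not reported here. Alternatives were RLE factors, library totals, no filter, DESeq2 1.42.0, a replicate block, each mouse left out, doublets kept, stricter cell filters (500 genes, 5%), members kept in the clustering, resolutions 0.5 and 2, thinning to 1000 UMIs and other gates. Added after the data were seen were single clusters, library totals in the comparisons within mice and crossed replicate numbers.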

Additional observations from a re-analysis of the deposited data

Results flagged for a closer look

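The genotype difference of Jun was not the same in B-like and monocyte/macrophage-like cells by a test of the difference itself. Jun stood at 606 and 527 CPM in knockout and 902 and 522 in control B-like cells (log2 change -0.26 ± 0.26), and at 1297 and 1135 against 710 and 559 CPM in monocyte/macrophage-like cells (0.81 ± 0.14). The difference was -0.95 on the log2 scale (adjusted p = 0.0177, edgeR interaction term) and was not called without knockout mouse 2. In B-like cells control mouse 1 was the highest of the 4 mice, as it was for Fos, Fosb and Egr1 there.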

How the results depend on the processing

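Directions held in all 210 refits of the 16 called member results, and 199 kept the call. The 11 lost calls were Jun between genotypes in monocyte/macrophage-like cells (4), Nr4a1 there within the Ace cluster, Nr4a2 in NK-like cells (3), Egr1 in expanded clones (2) and the Jun interaction (1), with the values printed beside each result; the cause was not tested. Counts of called members moved more. A count printed without the share of all genes called in its fit is not read as a result about the members. In monocyte/macrophage-like cells (2 members) DESeq2 gave 4, C1q macrophages alone 5, Ly6c2 monocytes alone 4, the Igf1 cluster 5 and the Ccl2 cluster 1. In NK-like cells (2) no filter gave 4, library totals and DESeq2 3 each and doublets kept 1. In neutrophil-like cells (0) stricter cell filters, members kept in the clustering and both other resolutions gave 1 each and the larger cluster alone 3. In conventional dendritic-like cells (1) no filter, doublets kept, members kept in the clustering and resolution 0.5 gave 2 each, stricter cell filters 5 and resolution 2 gave 4. In CD4 conventional T cells (0) no filter gave 3 and DESeq2 1, and resolution 0.5 left too few cells for a fit. The interaction (1) gave 2 with library totals, 3 with no filter and 2 with DESeq2, and the Pdcd1 comparison (3) gave 5 with no filter. The members' median log2 change in CD8 T cells (0.61) was 1.00 in cells with a Pdcd1 UMI, 0.26 in cells without and 0.0092 in the cluster led by Dapl1.

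Leaving out 1 mouse moved the share of all genes called as well, where that share is given above. In the comparisons between genotypes and in the interaction it left a lone mouse of a genotype, assumed to vary like the others. Counts of called members from those fits are not read as results. In the comparisons within mice, leaving out 1 mouse gave 3 to 4 called members for Pdcd1 and 3 to 5 for clones. It gave 3 to 6 for C1q against Ly6c2 (6 without knockout mouse 1). Of these fits, the share of all genes called is given only for C1q against Ly6c2 without knockout mouse 1. The other counts are therefore not read as results about the members. The CD8 T cell median ranged from 0.36 to 0.96.

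The labels number the mice but tie no knockout mouse to a control mouse, and deviations of same-numbered mice correlated at -0.13 to 0.14. With replicate number as a block the calls were 1 in B-like, 3 in monocyte/macrophage-like, 4 in NK-like, 0 in neutrophil-like, 1 in conventional dendritic-like and 1 in CD4 conventional T cells, and the CD8 T cell median was 0.62. With crossed numbers monocyte/macrophage-like cells had 3. The shares of all genes called in the block and crossed fits are not given, so these counts are not read as results about the members. Depth limits Egr2, which stayed under 50 CPM in every class, and Treg-like and plasmacytoid dendritic-like cells, which had too few cells in 1 mouse.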

Other observations

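Neutrophil-like cells held a larger cluster led by Acod1 and Hdc and a small cluster led by the granule genes Camp, Ngp and Ltf, and the members differed between them as a description of 3 mice with at least 30 cells in both. Junb stood at 3285, 5997 and 9344 CPM in the larger cluster and 1552, 1517 and 1323 CPM in the granule cluster of knockout mouse 1, control mouse 1 and control mouse 2. Egr1 stood at 375, 663 and 702 CPM against 17.4, 79.7 and 49.3, and Nr4a3 at 294, 430 and 285 CPM against 95.6, 19.9 and 32.5. Fos stood at 954, 800 and 2391 CPM against 1952, 1029 and 1577, higher in the granule cluster in 2 of 3 mice. The genes that make these clusters are not among the members.

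After thinning to 1000 UMIs, 35.0%, 33.3%, 30.9% and 23.2% of NK-like cells had a Nr4a2 UMI (60.9%, 60.5%, 63.2% and 48.7% before thinning), against the 2.1% to 3.4% of B-like cells given above. In NK-like cells with a Nr4a2 UMI, Nr4a3 was 2.38, 2.02, 2.11 and 3.31 times and Jun 0.94, 0.91, 1.12 and 1.05 times as high as in those without. Fos was 0.96, 1.29, 1.39 and 1.63 times as high in them, the receptor-induced list 1.31, 1.37, 1.29 and 1.49 times and the dissociation list 1.27, 1.29, 1.29 and 1.47 times, so the lists did not part in NK-like cells. These ratios are descriptions within each mouse.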
